A study of Zea mays with 56 samples.

Results

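Cluster_63212 and Cluster_49550 are 2 small RNA loci of maize whose most abundant RNAs carry the core sequence of the miR171 family, among 98 loci in the deposited microRNA table. They were selected on their microRNA counts in these same libraries: Cluster_63212 was higher and Cluster_49550 was lower in plants with B chromosomes than in plants without them. That difference is therefore described and not tested for these loci. What the choice did not use was tested: the trend with B copy number among carriers, the plant-to-plant relation between the loci, and the nearest genes. Other loci with related sequences were compared on the contrast behind the choice, which did not take them. Their differences from control are therefore a description too.

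B chromosomes are dispensable extra chromosomes carried in addition to the regular set. The study profiled leaves of 28 greenhouse-grown, 45-day plants of the maize inbred line W22 by small RNA sequencing and RNA-seq, 56 samples in all, with B copies counted in seedlings by fluorescence in situ hybridization. It asked how B chromosomes relate to RNA levels. Control plants had 0 copies (n = 4), and the carrier groups were 1B, 2B, 3B and 4B (n = 4 each), 5B (n = 2), 6B (n = 3) and 7B (n = 3), named by copy number. The labels give the control plants one series of plant codes and all carriers another, so plant series and B presence cannot be told apart. Genes are listed without names in the files, so leaf and meristem marker genes were not checked here.

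Plant microRNAs are cut from hairpin precursors and guide ARGONAUTE proteins to messenger RNAs with nearly complementary sites, which are mostly cleaved. The miR171 family targets messenger RNAs of GRAS transcription factors of the HAIRY MERISTEM (SCARECROW-LIKE6) type, which in Arabidopsis maintain shoot meristems and affect branching. In plants the pairing extends along nearly the whole microRNA, and its 5′ part, which holds the seed, tolerates few mismatches.

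The most abundant RNA of each locus is shown because the loci differ in register and in internal bases. Bases 2 to 8, the seed, are in capitals, and sequences run 5′ to 3′ as in the deposited table.
Cluster_63212: uUGAGCCGcgccaauaucucu
Cluster_49550: uGAGCCGAgccaauaucacuuc
Cluster_36501: uUGAGCCGcgucaauaucucc
Cluster_472: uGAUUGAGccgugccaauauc
Cluster_64322: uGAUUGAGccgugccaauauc
Cluster_69943: uUGAGCCGugccaauaucacg

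Cluster_63212 lies on the minus strand at chr9:101060209-101060336 and Cluster_49550 on the minus strand at chr7:43696564-43696650, in the coordinates of the deposited table, whose genome build is not given in the sources used here. No annotated gene overlapped either locus, and the table lists no known gene for them. Their main RNAs, of 21 nt and 22 nt, overlapped over 20 bases with a shift of 1 base. Over that overlap they differed at C9A and U19A, counted from the 5′ end of the Cluster_63212 RNA. The shift gave them different seeds: UGAGCCG at Cluster_63212, shared with Cluster_36501 and Cluster_69943, and GAGCCGA at Cluster_49550, which none of the other 5 loci had.

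The 4 other loci printed above were those whose main RNA matched that of either locus over at least 18 bases with 2 mismatches or fewer and a shift of up to 3 bases. Cluster_36501 differed from Cluster_63212 at C11U and U21C. Cluster_472 and Cluster_64322 had identical main RNAs, so a read of that RNA cannot be assigned to either locus by its sequence. Over 18 bases both differed from Cluster_63212 only at C9U. Cluster_69943 matched Cluster_49550 over 20 bases with 2 differences, A8U and U20G, counted from the 5′ end of the Cluster_49550 RNA. The run ugagccg was common to all 6 loci and was found in no other of the 98. The longest run shared by Cluster_63212 and Cluster_49550 was gccaauauc, present in 5 of the 98. RefSeq (build Zm-B73-REFERENCE-NAM-5.0) lists 14 maize MIR171 genes. The loci were not assigned to single RefSeq genes, and the family name rests on the core sequence and on the name under which the loci were given.

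The reads of the 2 loci differed in make-up, summed over all 28 libraries. Cluster_63212 held 1823 reads, of which 93.7% were its main RNA, 97.2% were 21 nt long and 0.329% were 22 nt long. Cluster_49550 held 471 reads, of which 45.4% were its main RNA, 31.0% were 21 nt long and 66.5% were 22 nt long. The median 22 nt share over the 98 loci was 3.98%, and 5 loci had a higher share than Cluster_49550. In plants, RNAs of this length class are known for starting the production of secondary small RNAs from the transcripts they cut.

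The loci also differed in how uniquely their reads were placed. At Cluster_49550, 98.7% of the reads mapped to that place alone, against 3.13% at Cluster_63212, and 72 of the 98 loci had a higher unique share than Cluster_63212. The median over the table was 25.9%. How the authors placed reads with several matches is not given in the sources used here, so counts at Cluster_63212 may include reads of other loci with the same RNA. Reads on the opposite strand made up 0.1% at Cluster_63212 and 10.6% at Cluster_49550.

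**Figure D1:**
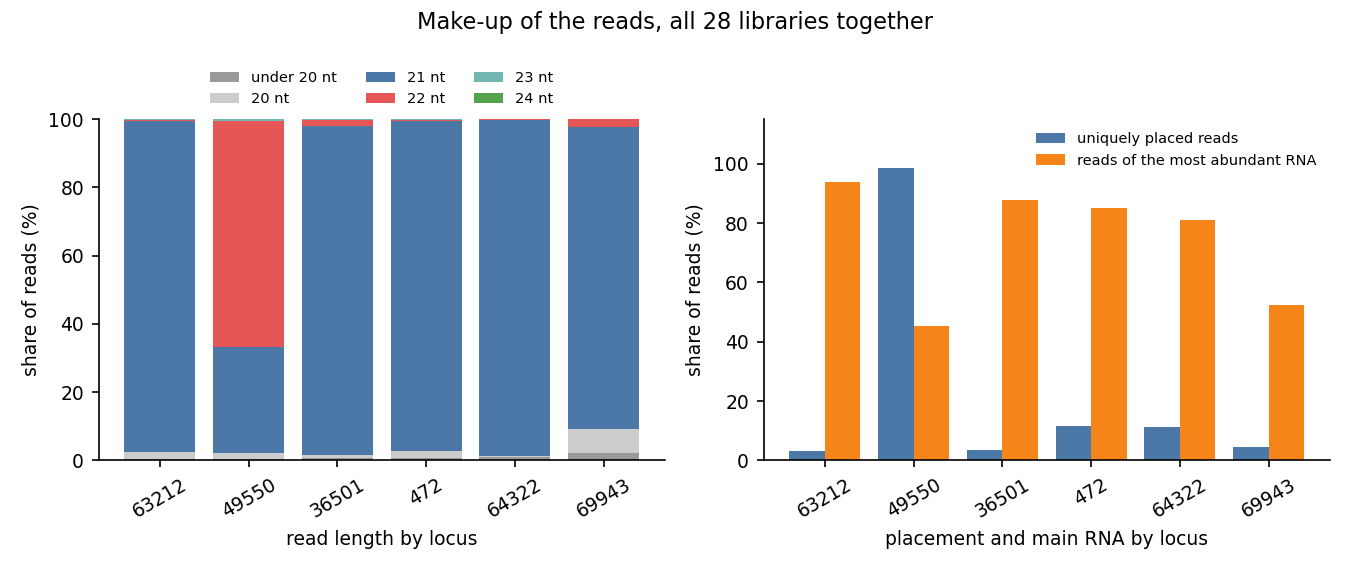
Make-up of the reads at the 6 loci with related main RNAs, as percent of each locus's reads over all 28 libraries. Cluster_49550 combines a high 22 nt share (66.5%) with mostly unique reads (98.7%), whereas Cluster_63212 is almost all 21 nt (97.2%) with few unique reads (3.13%).

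Library totals set the precision of what follows. Between 17487 and 120136 microRNA counts were read per library (median 89671), and the most abundant locus took 27.8% to 43.1% of them. The shallowest library was 3B replicate 1. Levels are given as counts per 1000000 microRNA counts after TMM scaling (CPM), and the tests were run on the counts with edgeR.

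Cluster_63212 was higher in every carrier than in any control. The 24 carriers lay between 521 and 1635 CPM with a median of 821, from 30 to 120 counts per library. The 4 controls had 335, 234, 248 and 148 CPM, from 33, 15, 14 and 15 counts. The means were 852 ± 238 CPM in carriers (SD, n = 24) and 241 ± 76.9 CPM in controls (SD, n = 4), a ratio of 3.53. In the fit that weights the 7 carrier groups equally, the difference was 1.77 ± 0.24 (log2, SE). Against the background, 12 of 71 loci tested (16.9%) were called higher in carriers by edgeR at an adjusted p under 0.05, and for 3 of the 71 (4.23%) every carrier lay above every control.

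The level of Cluster_63212 varied among the carrier groups without following copy number in order. The 1B plants had 828.5, 607, 991 and 967 CPM, and the 2B plants had 884, 752, 684 and 813 CPM. The 3B plants had 1162, 1178, 837 and 521 CPM, and the 4B plants had 939, 970, 1635 and 915 CPM. The lowest and the highest carrier thus lay in neighbouring groups, and all 4B plants lay above all 2B, 5B, 6B and 7B plants. The 5B plants had 779 and 812 CPM, the 6B plants had 691, 756 and 707 CPM, and the 7B plants had 860, 559 and 590 CPM. Ordered by mean, the groups ran 4B (1115), 3B (924.5), 1B (848.5), 5B (795), 2B (783), 6B (718), 7B (669.9) and control (241). In that order by mean, each carrier group overlapped the next carrier group and differed from it by less than the larger of their SDs. Between 7B and control the gap of 429 CPM exceeded the larger SD of 165.7, and the plants did not overlap.

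Cluster_49550 was lower in most carriers than in the controls, with overlap. The 24 carriers lay between 63.7 and 321 CPM with a median of 170.5, from 2 to 32 counts per library. The 4 controls had 213, 343, 265 and 462 CPM, from 21, 22, 15 and 47 counts. In all, 17 of 24 carriers were below the lowest control and 7 were within the control range, while 2 controls were above the highest carrier. The means were 169 ± 69.1 CPM in carriers (SD, n = 24) and 321 ± 108 CPM in controls (SD, n = 4), a ratio of 0.527. The equally weighted difference was -0.97 ± 0.29 (log2, SE), and without control replicate 4 it was -0.56. Over the table, 17 of 71 loci (23.9%) were called lower in carriers, and 29 of 71 (40.8%) were called in either direction, or 19 without control replicate 4; for 1.41% of the 71 every carrier lay below every control. Cluster_49550 was among the loci called, but not without control replicate 4 or with the totals of all small RNA reads in place of TMM. That call describes the locus and does not test it, since the locus was chosen on this contrast. In leaf RNA as a whole, fewer cells that make an RNA and less of it per cell cannot be told apart.

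By copy number, Cluster_49550 spread more widely within groups than between them. The 1B plants had 290.0, 224, 115.5 and 224.5 CPM, and the 2B plants had 119, 321, 204 and 65.4 CPM. The 3B plants had 77.5, 218, 234 and 189 CPM, and the 4B plants had 103, 203, 163.5 and 165 CPM. The value of 77.5 CPM, in 3B replicate 1, rests on 2 counts and has an exact Poisson 95% interval of 9.38 to 280.0 CPM, which covers counting error only. The 5B plants had 160.3 and 63.7 CPM, the 6B plants had 97.2, 221 and 167 CPM, and the 7B plants had 174, 179.8 and 76.97 CPM. Ordered by mean, the groups ran control (321), 1B (213.5), 3B (179.7), 2B (177.5), 6B (162), 4B (159), 7B (144) and 5B (112). All 7 pairs of neighbours in that order overlapped and differed by less than the larger of their SDs.

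**Figure D2:**
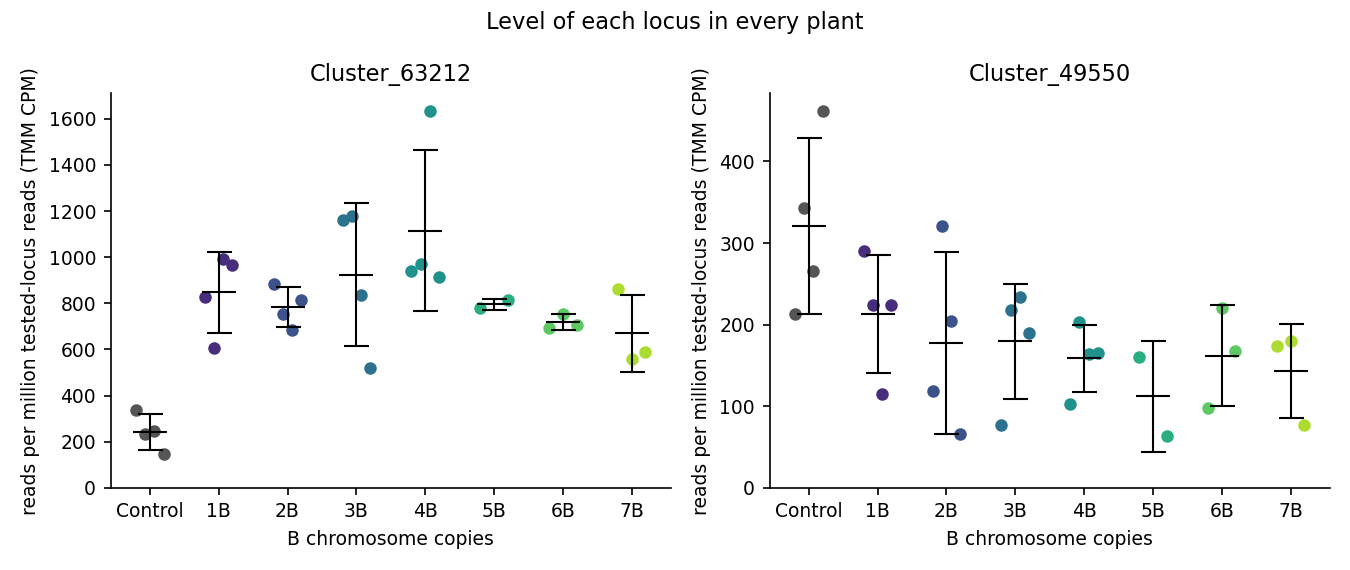
Level of each locus in each of the 28 plants (CPM after TMM scaling), by number of B chromosomes, with group mean and SD. At Cluster_63212 every carrier (521 to 1635 CPM) lies above every control (148 to 335 CPM), whereas at Cluster_49550 carriers (63.7 to 321 CPM) overlap the controls (213 to 462 CPM).

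Scaling moved both differences together. With the totals of all small RNA reads in place of TMM, the differences were 2.12 at Cluster_63212 and -0.61 at Cluster_49550, and the median of all loci tested moved by 0.38 (log2). Relative to that median, Cluster_63212 stood at 1.93 with TMM and 1.90 with library totals, and Cluster_49550 at -0.81 with TMM and -0.82 with library totals. Under library totals the share of calls that were higher in carriers was 85.7%, against 41.4% with TMM. In the deposited RPM (reads per 1000000 reads of the small RNA library), Cluster_49550 lay at 7.20 to 36.6 RPM in carriers and 20.7 to 43.9 RPM in controls, and 13 of 24 carriers were below the lowest control. Cluster_63212 lay at 60.4 to 168 RPM in carriers and 14.01 to 35.4 RPM in controls.

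The 7 carrier groups share the same 4 controls, so their differences from control are not independent of each other. At Cluster_63212 the log2 differences were 1.81 (1B), 1.70 (2B), 1.90 (3B), 2.20 (4B), 1.72 (5B), 1.57 (6B) and 1.48 (7B), which correspond to 2.78 to 4.602 times the control level. At Cluster_49550 they were -0.61 (1B), -0.87 (2B), -0.72 (3B), -1.01 (4B), -1.45 (5B), -1.002 (6B) and -1.13 (7B), which correspond to 0.365 to 0.657 of the control level. Their SEs were 0.28 to 0.32 at Cluster_63212 and 0.38 to 0.54 at Cluster_49550.

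The authors' deposited table gave log2 fold changes of 1.77 to 2.52 for Cluster_63212, with a false discovery rate (FDR) of at most 1.23e-04, so it was called higher at all 7 copy numbers. For Cluster_49550 the authors' deposited table gave -1.07 to -0.24 with an FDR of 0.339 to 0.892, so it was called at 0 of 7 copy numbers. These calls use the same libraries and the contrast behind the choice of loci, so they describe the loci and test neither. In the authors' deposited table, the loci called higher at an FDR under 0.05 were 11.2% of the 98 at 1B, 16.3% at 2B, 16.3% at 3B, 17.3% at 4B, 4.08% at 5B, 13.3% at 6B and 14.3% at 7B. Loci called lower there were 1.02% at 4B, 3.06% at 6B and 1.02% at 7B, and none at the other copy numbers.

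The ratio of the 2 loci within a library does not depend on how libraries are scaled. Counts of Cluster_63212 divided by counts of Cluster_49550 gave 2.34 to 15.0 in carriers (median 4.90) and 1.57, 0.682, 0.933 and 0.319 in controls. No carrier overlapped a control, but the loci were chosen for opposite differences between these groups, so this separation is described and not tested. The highest ratio, in 3B replicate 1, rests on the 2 counts named above. The group medians were 3.58 (1B), 5.38 (2B), 4.49 (3B), 7.33 (4B), 8.80 (5B), 4.23 (6B) and 4.94 (7B).

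Among carriers, which the choice of loci did not compare with each other, no trend with copy number passed the test. The slope of Cluster_63212 was -0.06 ± 0.04 log2 units per B copy (SE; 95% interval -0.14 to 0.03; edgeR adjusted p = 0.366, n = 24). The slope of Cluster_49550 was -0.10 ± 0.05 (SE; 95% interval -0.21 to 0.01; edgeR adjusted p = 0.262, n = 24). Over all loci, 0 of 70 (0.0%) passed by edgeR, 14 had an unadjusted p under 0.05, and 1 passed by DESeq2; without 3B replicate 1, 5 passed by edgeR.

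A test for any difference among the 7 carrier groups gave an edgeR adjusted p of 0.266 for Cluster_63212 and 0.798 for Cluster_49550. Over all loci, 1 of 70 passed it (1.43%), Cluster_21063, named after its values were seen; without 1B replicate 2, 7 passed. The log2 ratio of the loci did not pass a test of relation with copy number either (Pearson's r = 0.0975, permutation p = 0.65, adjusted 0.974; Spearman's rho = 0.148, permutation p = 0.488, adjusted 0.859). The 3 plants of 7B were equally far from the median copy number, and leaving out any 2 of them gave a Pearson's r of 0.0665 to 0.216. Adjusted values cover the 2 relations tested.

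The loci showed no detectable relation from plant to plant among carriers. Cluster_49550 had 2 to 32 counts per carrier (median 13.5), and counting error of that size pulls a correlation toward 0, so a relation could be missed. Pearson's r of their log2 CPM was 0.00697 (two-sided permutation p = 0.974, adjusted 0.974, n = 24). Spearman's rho was -0.0383 (permutation p = 0.859, adjusted 0.859). Without the 2 carriers farthest from the median of Cluster_63212, r was 0.0272. No r is given over all 28 plants as a result, since carriers and controls form separate clusters by the choice of loci.

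**Figure D3:**
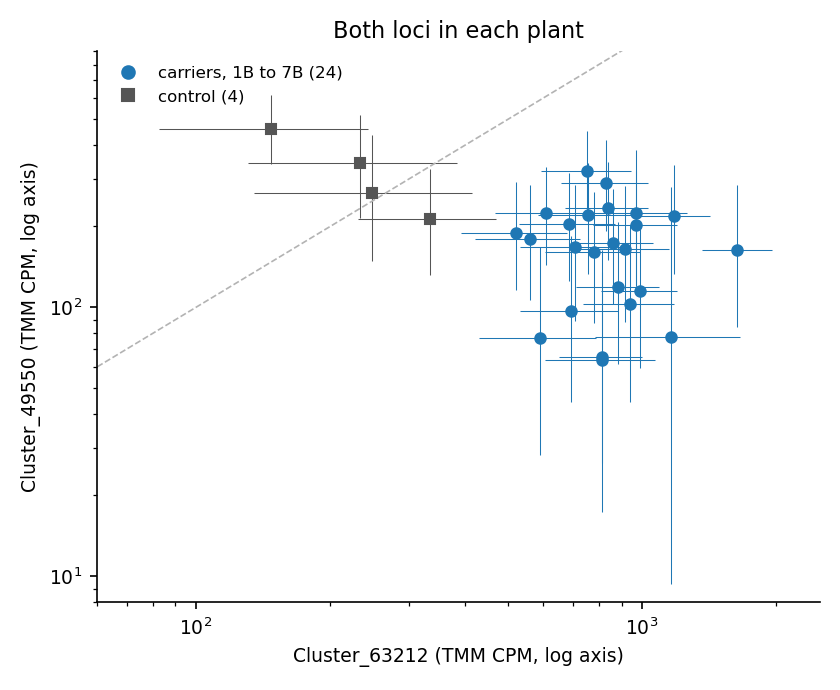
Level of Cluster_49550 against Cluster_63212 in each of the 28 plants (CPM, log axes), with exact Poisson 95% intervals from the counts and a dashed line of equal levels. The 24 carriers form a cloud without a trend (r = 0.00697) beyond the highest control on the Cluster_63212 axis.

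The loci with related main RNAs did not pass the test of carriers against controls. On this same contrast Cluster_63212 and Cluster_49550 were chosen and the related loci were not. The absence of calls at the related loci is therefore described, and is no independent result. Cluster_36501, which has the seed of Cluster_63212, averaged 446 ± 121 CPM in carriers and 417 ± 83.2 CPM in controls (SD, n = 24 and 4), a difference of 0.08 ± 0.19 (log2, SE; edgeR adjusted p = 0.75). Cluster_472 averaged 198 ± 76.6 CPM in carriers and 260.1 ± 80.1 CPM in controls, a difference of -0.45 ± 0.30 (edgeR adjusted p = 0.253). Cluster_64322 averaged 141 ± 46.0 CPM in carriers and 150.1 ± 70.7 CPM in controls, a difference of -0.13 ± 0.26 (edgeR adjusted p = 0.741). Thus 0 of these 3 tested loci passed in either direction, and 0 of the 3 passed the copy-number trend, with slopes of -0.05 to 0.05 per copy, beside the 40.8% and 0.0% of all loci called in these tests. Cluster_69943, with 0 to 5 counts per library, fell below the filter on low counts and was not tested. Whether these loci differ from Cluster_63212 or Cluster_49550 in their response was not tested.

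Among the reads of all 6 loci, the make-up differed between carriers and controls. Cluster_63212 and Cluster_49550 were chosen for opposite differences between these groups, so this shift is described and not tested. Cluster_63212 held 31.9% to 71.4% of the reads of the 6 loci in carriers (median 45.1%) and 9.32% to 23.6% in controls (median 18.01%). Cluster_49550 held 3.804% to 18.7% in carriers (median 9.24%) and 15.0% to 29.2% in controls (median 22.5%). A share falls when another locus rises, and the median shares of the other 4 loci were lower in carriers too. In carriers and controls they were 26.8% and 29.8% (Cluster_36501), 10.9% and 17.8% (Cluster_472), 7.76% and 8.86% (Cluster_64322), and 0.766% and 1.69% (Cluster_69943). The sum over the 6 loci includes the chosen loci, so it is a description too. It was 1822 ± 255 CPM in carriers and 1424 ± 134 CPM in controls (SD, n = 24 and 4). Without Cluster_63212 and Cluster_49550, the other 4 loci summed to 801 ± 186 CPM in carriers and 862 ± 94.6 CPM in controls, with carriers on both sides of the controls.

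**Figure D4:**
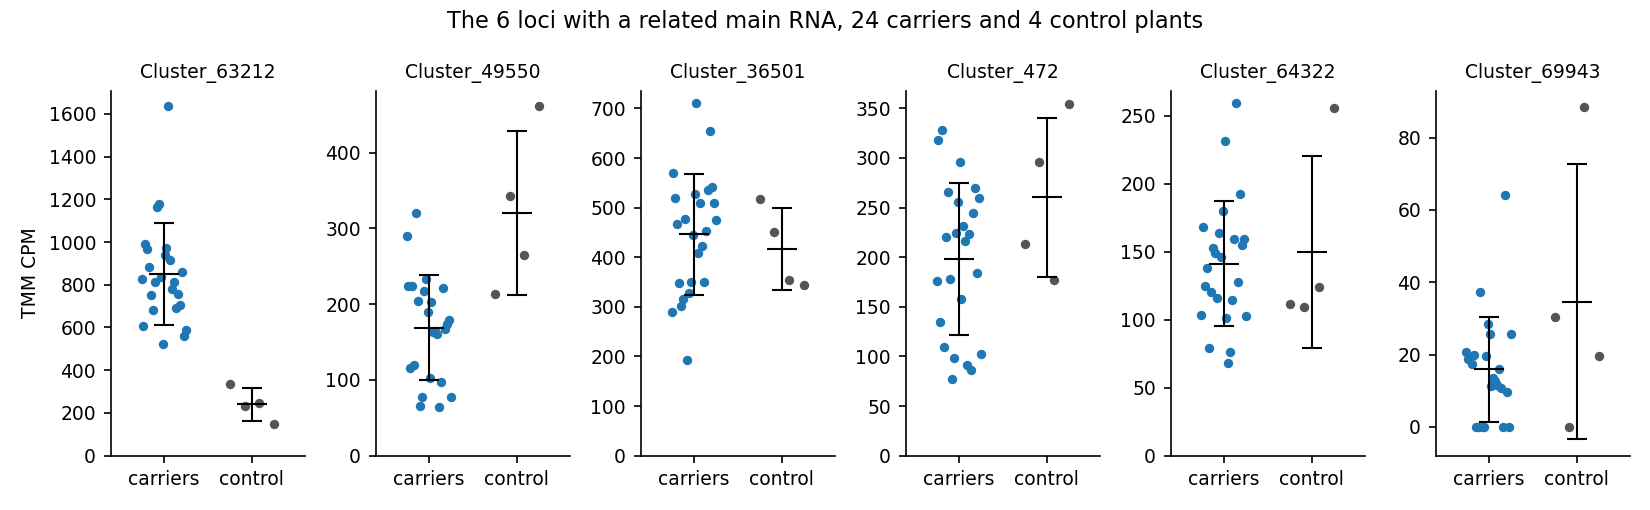
Levels of the 6 loci with related main RNAs in carriers and controls (CPM after TMM scaling), one point per plant, with means and SDs. Of the 6, Cluster_63212 is the locus where carriers and controls do not overlap, and Cluster_49550 has 17 of 24 carriers below the lowest control.

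The loci whose levels were most like each of the 2 among the 24 carriers were named from 70 compared, by Pearson's r of log2 CPM, as a description over libraries that share depth and scaling. For Cluster_63212 they were Cluster_44783 (r = 0.643, and 0.62 over all 28), Cluster_21443 (0.578, and 0.0674 over all 28) and Cluster_57050 (0.527, and -0.0687 over all 28). Cluster_49550 ranked 40 in that list. For Cluster_49550 they were Cluster_40779 (r = 0.745, and 0.508 over all 28), Cluster_53031 (0.503, and 0.698 over all 28) and Cluster_32247 (0.438, and 0.561 over all 28). The median r over the loci compared was 0.0301 for Cluster_63212 and 0.0557 for Cluster_49550. The main RNAs of the most alike locus of each, shown for their lack of the core sequence, lie at chr6:87332945-87333124 and chr5:184890343-184890499.
Cluster_44783: uUAAAUCUggacccuucaucu
Cluster_40779: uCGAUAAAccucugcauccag

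The genes nearest to the loci in the deposited coordinates were taken whatever their values, since position played no part in the choice. Gene levels are FPKM (fragments scaled to gene length and library size), tested with limma on log2(FPKM + 0.5), a scale that understates changes of low genes. In this comparison 11514 of 24515 genes (47.0%) were called, 23.7% lower and 23.2% higher, the shares against which the called neighbours are to be read. The share of all genes whose carriers and controls do not overlap was not counted, so such separation at a neighbour is only described.

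Zm00004b035393, 135 kb on the lower-coordinate side of Cluster_49550 at chr7:43558443-43561161, was lower in all 24 carriers. Its levels were 7.80 to 15.5 FPKM in carriers (median 12.0) and 40.1, 41.1, 36.0 and 44.1 FPKM in controls. The means were 12.0 ± 2.23 FPKM in carriers and 40.3 ± 3.31 FPKM in controls (SD, n = 24 and 4), a difference of -1.74 ± 0.12 (log2, SE; limma adjusted p = 1.39e-11). Among carriers its slope was -0.05 per copy (95% interval -0.10 to 0.00; limma adjusted p = 0.288). The background for that trend was 767 of 24019 genes called (3.19%), 2.28% higher and 0.912% lower with more copies. Zm00004b035394, on the other side at 149 kb, was listed at 0 in 25 of 28 libraries and was not tested.

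Zm00004b032940, 62.4 kb on the lower-coordinate side of Cluster_63212 at chr9:100997457-100997784, was also lower in carriers. It was listed at 0 to 3.90 FPKM in carriers (median 0.922, with 9 libraries at 0) and at 12.8, 8.96, 4.27 and 2.87 FPKM in controls. In all, 23 of 24 carriers were below the lowest control, and the difference was -2.51 ± 0.53 (log2, SE; limma adjusted p = 3.51e-04). With values this low its size depended on the pseudocount, at -3.49 with 0.1 FPKM and -2.04 with 1 FPKM, and it stayed past the threshold with both. Among carriers its slope did not pass (-0.12 per copy, limma adjusted p = 0.573). Zm00004b032941, 74.4 kb on the other side, was listed at 0 in 17 of 28 libraries, and its difference of -0.63 ± 0.45 did not pass (limma adjusted p = 0.265), nor did -1.41 with 0.1 FPKM or -0.39 with 1 FPKM. Thus the 2 called neighbours were both lower in carriers, one beside the locus that was higher and one beside the locus that was lower. Scaling to the spike-in RNAs added to each sample shifted all genes alike, by 0.305 (log2) between the means of carrier and control libraries. With it, the differences were -1.43 for Zm00004b035393, -2.20 for Zm00004b032940 and -0.32 for Zm00004b032941.

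**Figure D5:**
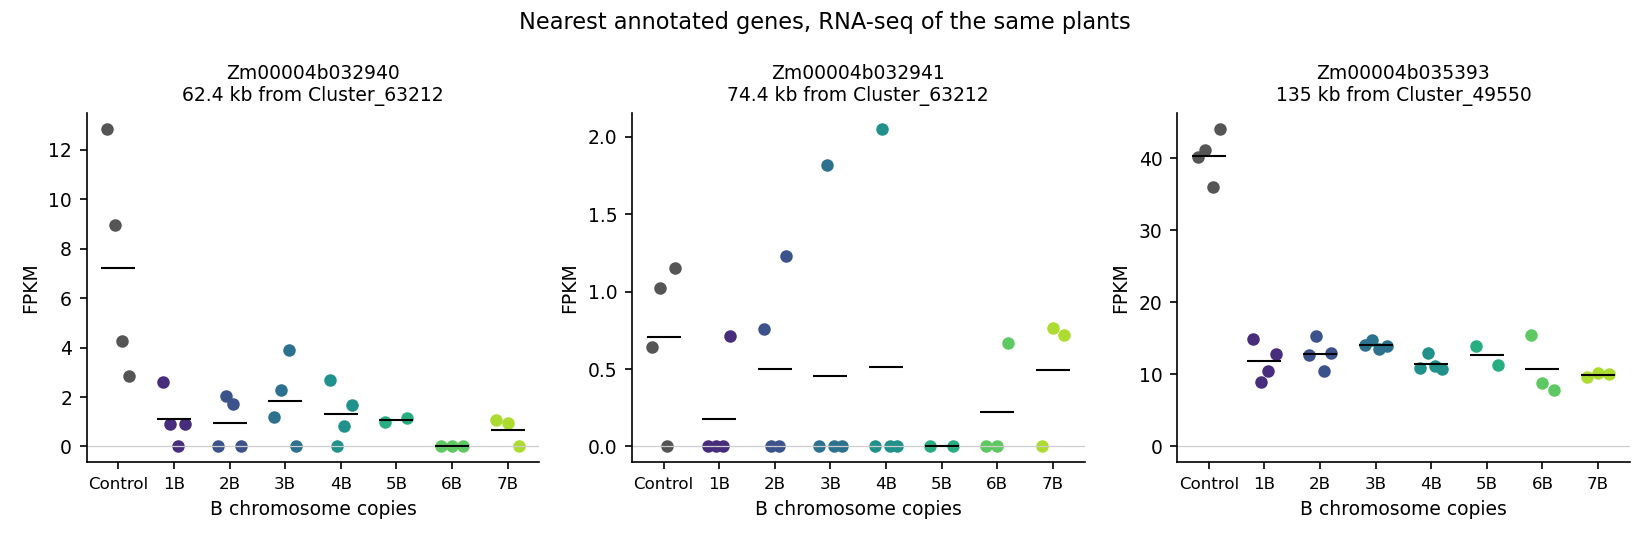
Levels of the nearest annotated genes (FPKM) in each of the 28 plants by number of B chromosomes, with the group mean as a line. Zm00004b035393 lies at 7.80 to 15.5 FPKM in carriers and 36.0 to 44.1 FPKM in controls, while both genes beside Cluster_63212 are listed at 0 in several libraries.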

How the data were processed

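The members and all lists were chosen with earlier results of these data known. MicroRNA locus counts, and RPM per small RNA library, are as deposited by the authors, with read shares per locus. The deposited gene table holds FPKM, already scaled between libraries by the authors. The submitters' processing notes name Bowtie2, TopHat2, Cuffdiff, edgeR and cutadapt 1.16 without roles. The log2 fold changes and p-values of the authors' deposited table come from their own comparison of each copy number with control, per the file headers; deposited control means matched means of the gene table within 0.1% for 18967 of 18967 genes over 1 FPKM.

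Counts were tested with edgeR 4.0.16 in R 4.3.3 (quasi-likelihood test, TMM factors, filterByExpr by group, Benjamini-Hochberg over all loci tested). Presence was the mean of 7 carrier groups minus control over 28 libraries, and dosage the slope over 24 carriers. The SE is the log2 difference divided by the square root of F. Genes were tested with limma 3.58.1 (trend) on log2(FPKM + 0.5), for genes reaching 0.5 FPKM in 2 libraries or more. Log2 CPM for correlations used a prior count of 2, with 100000 permutations (two-sided). DESeq2 1.42.0, other scalings, filters, prior counts and left-out libraries were alternatives. The labels call plants of a group biological replicates; same-numbered plants did not deviate together (median r 0.00348 over 87 pairs), so numbers only name plants. Depth ran from 17487 to 120136 microRNA counts per library. Statistics were checked on simulated data.

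Named were both loci, loci with related main RNAs, the nearest gene on each side and the 3 loci most alike in carriers. A reference of mature microRNA sequences was not used here, so the rule for other miR171 loci was replaced by a match to the main RNA of either locus, and the list of other developmental families was not run. Of 41064 gene identifiers, 0 matched RefSeq, so GRAS target genes and cell type markers were not analysed here.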

Additional observations from a re-analysis of the deposited data

Results flagged for a closer look

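Of 30 groups of 4 plants or more examined, 4 held 1 plant far from the others. Chance gives about 1 in 20 groups where values vary freely, a rate that does not apply to the 3 groups of Zm00004b032941 in which all plants but 1 were listed at 0. At Cluster_63212, 4B replicate 3 had 1635 CPM, and its gap to the next plant was 0.924 of the range of the group; the other 4B plants had 915 to 970 CPM. Zm00004b032941 had 0.714 FPKM in 1B replicate 4, 1.82 FPKM in 3B replicate 2 and 2.05 FPKM in 4B replicate 2, and was listed at 0 in the other 3 plants of each group.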

How the results depend on the processing

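Of 533 recomputed values, 505 kept their direction and their side of the threshold or stayed within the limits set for counts, 16 moved, 10 changed sign and 2 lost the call. Those 2 were the difference at Cluster_49550 with library totals (-0.61) and without control replicate 4 (-0.56). The call at that locus is a description, since the locus was chosen on this contrast. Both slopes with copy number stayed negative and above the threshold, at -0.07 to -0.03 for Cluster_63212 (edgeR adjusted p 0.229 to 0.61) and -0.12 to -0.08 for Cluster_49550 (0.157 to 0.385) when 1 carrier was left out. With a replicate block they were -0.07 (adjusted p = 0.337) and -0.12 (0.19), and the block changed no call of these loci. The replicate numbers gave no pairing: 8 of 28 libraries correlated best with a library of their own number. Loci called for copy number ran from 0 to 5 with 1 library left out (5 without 3B replicate 1), 2 without the most abundant locus and 1 by DESeq2. Loci that differed among carrier groups numbered 6 with library totals, 9 by DESeq2, and 1 to 7 with 1 library left out. Loci called for presence ran from 19 (without control replicate 4) to 31. The difference at Cluster_63212 ran from 1.72 to 2.14 (without control replicate 1), and that at Cluster_49550 from -1.04 to -0.56 over the libraries left out. The correlation of the loci was -0.0429 with a prior count of 0.5, and -0.0912 to 0.0515 with 1 carrier left out. The slope of Zm00004b032941 ran from -0.012 to 0.044. The cause of these changes was not tested. Counts of 2 to 47 per library limit the precision at Cluster_49550.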
